A study of Caenorhabditis elegans with 6 samples.

Results

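The genes described here are 10 of the 46778 in a transcript table of the nematode Caenorhabditis elegans, chosen by name because their products modify, cut or cross-link collagen, with earlier results of these data known. They are dpy-18, phy-2, pdi-2 and let-268 (hydroxylation of collagen chains), bli-4 and dpy-31 (removal of procollagen ends), and mlt-7, bli-3, tsp-15 and doxa-1 (cross-linking). All 10 symbols matched a gene of the table. RNA was sequenced in 6 libraries, 3 from Control worms and 3 from worms given HLB01. HLB01 is known here by its code name, in a study whose title names a root extract of Vicatia thibetica and collagen. The sources used here do not give strain, genotype, stage, dose, duration or batch. In the labels, the agent field reads HLB01, HLB02 and HLB03 in the treated libraries, while their titles read HLB01 replicates 1 to 3, and the titles were followed. Nothing says that replicates were separate cultures, so every p-value below speaks only for the spread of these samples, which may be technical.

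A collagen chain enters the endoplasmic reticulum, where prolyl 4-hydroxylase, a complex of catalytic subunits with a protein disulfide isomerase, hydroxylates prolines and so lets the chains form a stable triple helix. Lysyl hydroxylase modifies lysines, mostly of basement membrane collagen in worms. Proteases then cut the ends of the secreted chains, and in the worm cuticle a dual oxidase makes hydrogen peroxide with which peroxidases couple tyrosines of neighbouring chains. Worms that lack certain single enzymes of this route, though not every one, are short and fat, blistered or unable to moult. The names dpy and bli come from such traits.

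None of the 9 genes that could be tested passed the test for a change in HLB01 animals. Values are in TPM, an abundance per transcript length in which every library is set to the same total. Each gene that reached 1 TPM in 3 or more libraries was tested as log2(TPM + 1) in limma, with Benjamini-Hochberg adjustment over all 12590 such genes and a threshold of 0.05. By this rule 50 genes changed, which is 0.397% of those tested (21 higher, 0.167%, and 29 lower, 0.230%), so a count of 0 in 9 is near the background. At an unadjusted p below 0.05 there were also 0 of the 9, against 8.32% of all tested genes. The members' adjusted p-values ran from 0.617 to 0.982. Their median log2 fold change was 0.05, with 6 positive and 3 negative, beside -0.00 over all tested genes. Their median absolute log2 fold change was 0.09, beside 0.08 over all tested genes. The 95% intervals of the 9 lay between 0.795-fold and 1.29-fold on the scale of TPM + 1. A missed threshold does not show that the levels were alike, and these intervals are the range of change on that scale that the 6 libraries leave for each gene. The scale understates changes of genes at a few TPM. With 0.1 added in place of 1, the intervals lay between 0.776-fold and 1.35-fold, both bounds from bli-3. In RNA of whole samples, fewer cells of a type and less RNA per cell cannot be told apart.

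**Figure D1:**
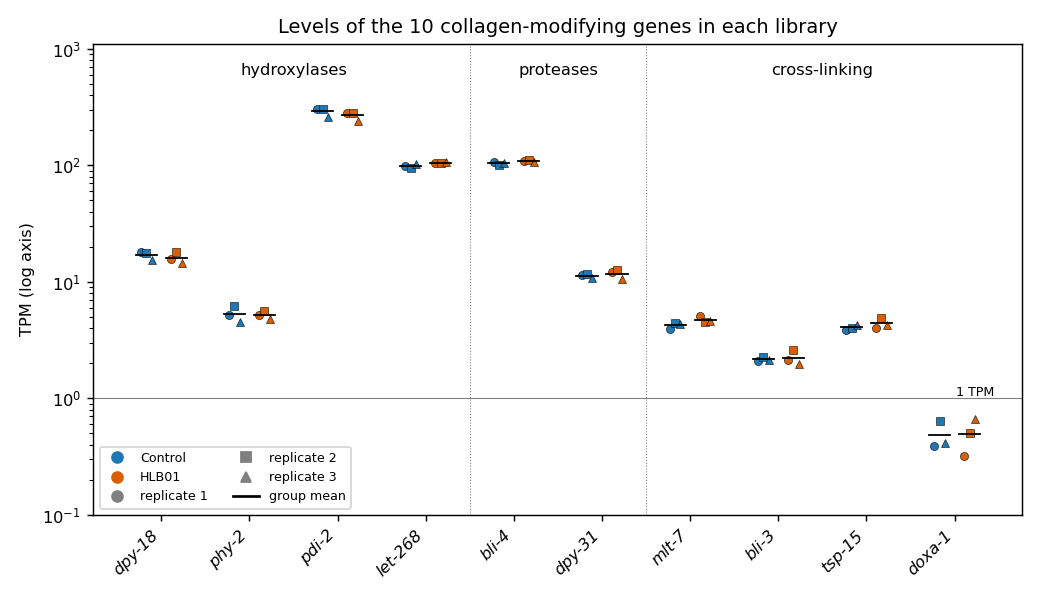
TPM (log axis) of the 10 genes in each library, with Control in blue, HLB01 in orange, a symbol shape per replicate and a black line at each group mean. The genes span from pdi-2 near 280 TPM to doxa-1 below 1 TPM, and no group mean of HLB01 differs from that of Control by more than 11.7%.

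The levels of the 10 genes covered a wide range, and TPM allows them to be set beside each other because it is scaled per length. The order by the mean of 6 libraries was pdi-2 (279.7 TPM), bli-4 (106.3), let-268 (101.8), dpy-18 (16.5), dpy-31 (11.5), phy-2 (5.23), mlt-7 (4.49), tsp-15 (4.23), bli-3 (2.20) and doxa-1 (0.487). Neighbours in this order had separate ranges over the libraries except in 3 places. The levels of bli-4 and let-268 overlapped, as did those of phy-2 and mlt-7, and of mlt-7 and tsp-15. Within single libraries phy-2 was above mlt-7 in 6 of 6, and bli-4 was above let-268 in 5 of 6. The genes bli-3 and doxa-1 were the least abundant, and pdi-2 stood above 96.3% of all tested genes while bli-3 stood above 14.9%.

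Levels of both catalytic subunit genes of prolyl 4-hydroxylase overlapped between the groups. The gene dpy-18 (WBGene00001077, WBcel235 chromosome III, 11372886 to 11377980, minus strand, 1 transcript), which encodes the main catalytic subunit, was at 18.1, 17.7 and 15.5 TPM in Control replicates 1, 2 and 3 and at 15.6, 17.9 and 14.4 TPM in the HLB01 replicates. The groups overlapped, and replicate 3 was the lowest of each. The means were 17.1 ± 1.39 and 15.95 ± 1.80 TPM (SD, n = 3 each), which gave a log2 difference of -0.09 ± 0.10 (SE; limma, adjusted p = 0.858). The gene phy-2 (WBGene00004025, chromosome IV, 12211097 to 12215987, minus strand), which encodes a second catalytic subunit that can partly stand in for the first, was at 5.16, 6.16 and 4.52 TPM in Control against 5.19, 5.58 and 4.79 TPM in HLB01. These groups overlapped too, and again replicate 3 was the lowest in each. Its log2 fold change was -0.02 ± 0.12 (limma adjusted p = 0.982), with a 95% interval from -0.31 to 0.28, and its sign turned with quantile normalization and with array weights.

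The gene pdi-2 (WBGene00003963, chromosome X, 4524155 to 4526536, plus strand) encodes the disulfide isomerase that forms the other subunit of the hydroxylase and also acts on its own. It was at 304.7, 305.9 and 259.7 TPM in Control against 283.8, 281.7 and 242.5 TPM in HLB01. The groups overlapped only through Control replicate 3, and replicate 3 was again the lowest of each group. The means were 290.1 ± 26.3 and 269.3 ± 23.3 TPM (SD, n = 3 each), with a log2 fold change of -0.11 ± 0.09 (limma adjusted p = 0.813). In each library dpy-18 held 69.5% to 73.7% of the summed TPM of the catalytic subunit genes dpy-18, phy-2, phy-3 and phy-4. The ratio of pdi-2 to the sum of dpy-18 and phy-2 was 12.99 ± 0.138 in Control and 12.8 ± 0.841 in HLB01, and that of dpy-18 to phy-2 was 3.26 ± 0.346 and 3.07 ± 0.121. Both groups overlapped in both ratios (exact two-sided permutation p = 0.7 and 0.4, adjusted over 6 ratios p = 1.0 and 0.8, where 0.1 is the smallest that 3 against 3 allows).

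The gene let-268 (WBGene00002497, chromosome II, 10033266 to 10039980, minus strand, 4 transcripts), the worm's lysyl hydroxylase gene, did not share the low values of replicate 3. It was at 98.9, 94.1 and 102.1 TPM in Control against 104.5, 104.6 and 106.5 TPM in HLB01. Each HLB01 value was above each Control value, and the highest library, HLB01 replicate 3, was the lowest for dpy-18 and pdi-2. The means were 98.4 ± 4.01 and 105.2 ± 1.08 TPM (SD, n = 3 each), 6.97% higher in HLB01. The log2 fold change was 0.10 ± 0.04 with a 95% interval from -0.01 to 0.20 (limma unadjusted p = 0.0601, adjusted p = 0.617). Such separation of the groups was found for 2 of the 9 tested members and for 13.8% of all tested genes (6.85% higher and 6.99% lower in HLB01). The type IV collagen genes emb-9 and let-2, whose chains are substrates of this enzyme, were at 23.9 ± 1.95 and 40.7 ± 2.17 TPM in Control against at 22.9 ± 3.39 and 37.1 ± 7.04 TPM in the HLB01 libraries (limma, adjusted p = 0.912 and 0.832).

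**Figure D2:**
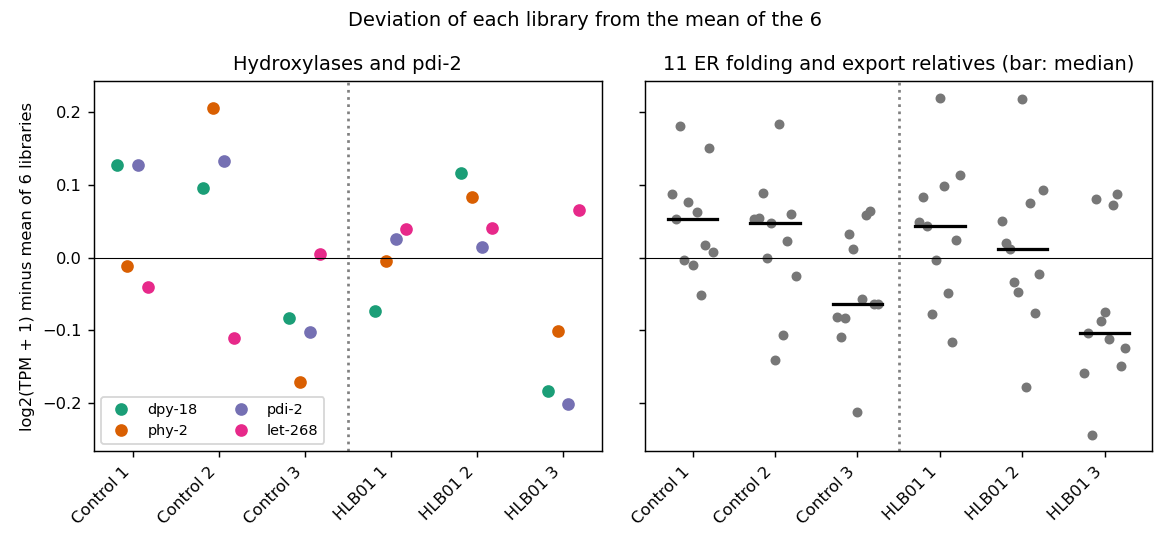
log2(TPM + 1) of each gene minus its mean over the 6 libraries (y axis) by library (x axis), for the 4 hydroxylation genes on the left and for 11 genes of folding and export in the endoplasmic reticulum on the right, where bars are medians. Replicate 3 lies low in both groups for dpy-18, phy-2, pdi-2 and the medians of the folding genes (-0.06 and -0.10). It is the lowest of each group for 7 of the 11 folding genes, and the highest of each group for ero-1 and tmem-39. The gene let-268 does not share the low values.

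The low values of replicate 3 were shared with some but not all listed folding genes of the endoplasmic reticulum, a pattern noticed after the values were seen. Control replicate 3 and HLB01 replicate 3 were each the lowest of their group for 4 of the 9 tested members, which were dpy-18, phy-2, pdi-2 and dpy-31. The same held for 9 of the 21 tested genes of the wider list described below, 7 of them among its 11 folding and export genes, and for 18.9% of all tested genes. For the folding and export genes ero-1 (81.01 and 83.81 TPM) and tmem-39 (39.94 and 40.62 TPM), replicate 3 was instead the highest of Control and of HLB01. The labels do not say that replicates with the same number share anything. HLB01 replicate 3 also stood apart on the first principal component (31.3% of the variance, a score of 32.01 against -15.3 to -0.57 in the others) and had the most ribosomal RNA, 4895 TPM against 530 to 2684. The part of either in the values above was not tested. Without HLB01 replicate 3 the log2 fold change of pdi-2 was -0.03 and without Control replicate 3 it was -0.18, and that of dpy-18 ranged from -0.18 to -0.03 over the libraries left out. No call followed in any of these fits.

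Both procollagen proteases were slightly higher in the mean of HLB01, within the spread. The gene bli-4 (WBGene00000254, chromosome I, 6342224 to 6356680, plus strand, 11 transcripts) encodes a furin-like proprotein convertase that cuts the N-terminal end of cuticle collagens. It was at 106.8, 100.8 and 105.3 TPM in Control against 108.01, 111.04 and 106.2 TPM in HLB01. HLB01 replicate 3 fell inside the Control range, and the gene had the smallest spread of the 10, with a coefficient of variation of 3.18% over the 6 libraries. Its log2 fold change was 0.06 ± 0.04 (limma adjusted p = 0.795), with an interval from -0.04 to 0.15. The convertase gene bli-4 overlaps mut-2 on the opposite strand, which had 53.9 TPM in Control against 55.1 TPM in HLB01. The overlap was taken from the start and end of each gene, and exons were not compared. Without a stated strand setting, reads from any exon sequence that both genes share cannot be told apart.

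The gene dpy-31 (WBGene00006592, chromosome III, 7202206 to 7207664, plus strand, 3 transcripts) encodes an astacin metalloprotease that cuts the C-terminal end of the cuticle collagen SQT-3. It was at 11.4, 11.8 and 10.7 TPM in Control against 12.1, 12.5 and 10.5 TPM in HLB01. The lowest and the highest of the 6 values were both in HLB01. The log2 fold change was 0.05 ± 0.09 (limma adjusted p = 0.922), with 0.0007 without HLB01 replicate 2 and 0.12 without HLB01 replicate 3. The ratio of bli-4 to dpy-31 was 9.25 ± 0.641 in Control and 9.29 ± 0.689 in HLB01 (exact two-sided permutation p = 1.0, n = 3 each). The collagen gene sqt-3 itself was at 3.88 ± 0.635 and 3.11 ± 0.4004 TPM (log2 fold change -0.24, SE 0.14; limma, adjusted p = 0.719).

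The cross-linking genes had low levels, and the 3 tested had positive log2 fold changes that missed the threshold, although that of bli-3 was -0.05 without HLB01 replicate 2. The gene mlt-7 (WBGene00022743, chromosome II, 4393007 to 4404850, plus strand), which encodes a secreted haem peroxidase needed for moulting, was at 3.95, 4.42 and 4.34 TPM in Control against 5.08, 4.53 and 4.59 TPM in HLB01. It is the other member whose groups did not overlap, by a gap between 4.42 and 4.53 TPM. The means were 4.24 ± 0.252 and 4.73 ± 0.302 TPM (SD, n = 3 each), 11.7% higher in HLB01, with a log2 fold change of 0.13 ± 0.10 (limma adjusted p = 0.797). The log2(TPM + 1) scale understates changes at such levels, and with a pseudocount of 0.1 the value was 0.16 with an interval from -0.12 to 0.43.

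The dual oxidase and its partners form a complex at the cell surface. The gene bli-3 (WBGene00000253, chromosome I, 145968 to 154855, minus strand, 2 transcripts), which encodes the oxidase, was at 2.11, 2.25 and 2.12 TPM in Control against 2.13, 2.58 and 1.98 TPM in HLB01. Its HLB01 values spread to both sides of the Control values, and the log2 fold change was 0.03 ± 0.12 (limma adjusted p = 0.971). The gene tsp-15 (WBGene00006641, chromosome I, 8928750 to 8931089, plus strand), a tetraspanin that supports the oxidase, was at 3.89, 4.0 and 4.28 TPM in Control against 4.02, 4.92 and 4.27 TPM in HLB01. HLB01 replicate 2 was the highest library for both genes. The log2 fold change of tsp-15 was 0.09 ± 0.11 (limma adjusted p = 0.870). It overlaps madd-4 on the opposite strand, at 0.940 and 1.11 TPM.

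The gene doxa-1 (WBGene00015519, chromosome III, 8581102 to 8583910, plus strand), which encodes the maturation factor of the oxidase, was at 0.39, 0.64 and 0.41 TPM in Control against 0.32, 0.50 and 0.66 TPM in HLB01. It was the only member below 1 TPM in all libraries and was left out of the test across genes. The groups overlapped fully, and an exact two-sided permutation test of log2(TPM + 1) gave p = 0.9 (n = 3 each). The ratio of bli-3 to tsp-15 was 0.533 ± 0.0345 in Control and 0.506 ± 0.0367 in HLB01, so the tetraspanin transcript was the more abundant in all libraries. The ratio of bli-3 to doxa-1 was 4.70 ± 1.03 and 4.94 ± 1.84, and that of mlt-7 to bli-3 was 1.96 ± 0.0876 and 2.15 ± 0.346. Both groups overlapped in these 3 ratios (exact two-sided permutation p = 0.4, 1.0 and 0.4, adjusted over 6 ratios p = 0.8, 1.0 and 0.8).

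**Figure D3:**
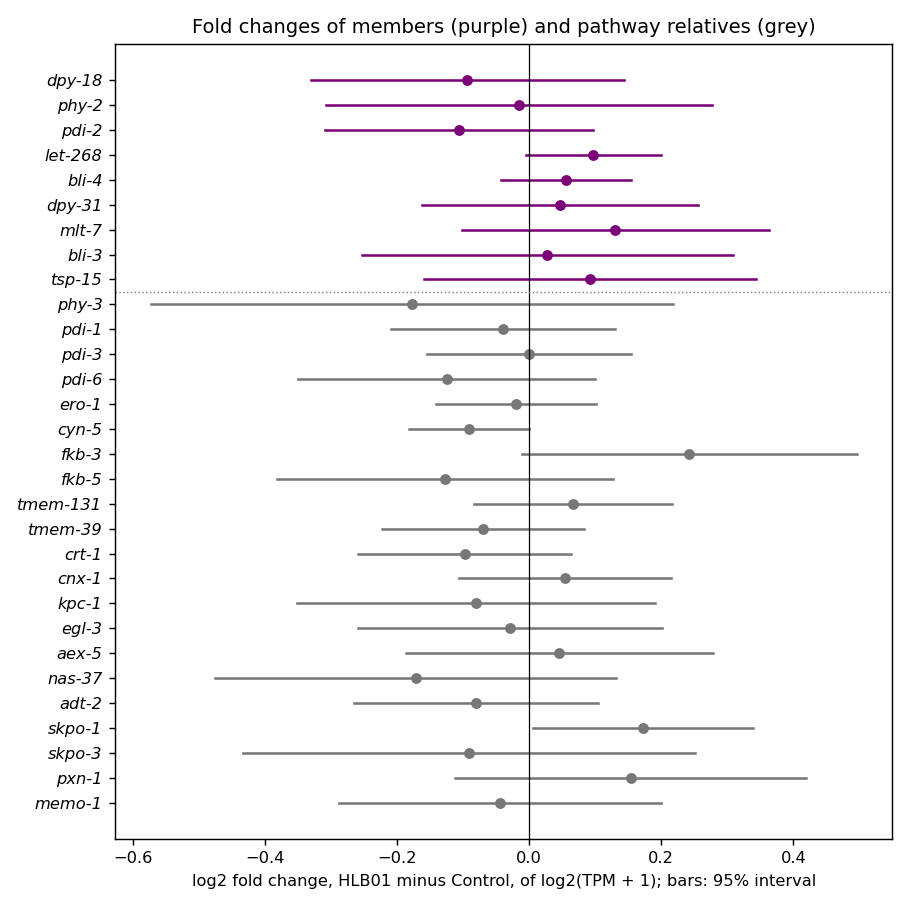
log2 fold change of HLB01 against Control on the log2(TPM + 1) scale (x axis) with 95% intervals from limma, for the 9 tested members (purple) and 21 tested relatives of the pathway (grey). The members' estimates lie between -0.11 and 0.13.

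A wider list of 33 genes of the same route gave the same count of calls. Of them 21 could be tested, 0 rose and 0 fell in limma after adjustment, and 2 had an unadjusted p below 0.05. Over all tested genes these shares were 0.397% after adjustment and 8.32% before it, so both counts are near the background. The median log2 fold change of the 21 was -0.04, with 7 positive and 14 negative. Over all tested genes it was -0.004, with 6136 positive and 6454 negative. The smallest p belonged to skpo-1, a peroxidase gene, which was at 230.7, 264.2 and 248.4 TPM in Control against 295.0, 287.7 and 256.0 TPM in HLB01. Only HLB01 replicate 3 lay inside the Control range (log2 fold change 0.17 ± 0.07, limma unadjusted p = 0.0438, adjusted p = 0.599). The next were cyn-5, a cyclophilin gene, at 578.3 ± 12.8 and 542.9 ± 15.8 TPM (log2 fold change -0.09, SE 0.04; limma, adjusted p = 0.601), and fkb-3, another prolyl isomerase gene, at 10.8 ± 0.845 and 13 ± 1.59 TPM (log2 fold change 0.24, SE 0.11; limma, adjusted p = 0.617). The disulfide isomerase genes pdi-1 and pdi-3 had log2 fold changes of -0.04 ± 0.07 and 0.00 ± 0.07 (limma adjusted p = 0.919 and 1.00). For nas-37, an astacin gene of moulting, the value was -0.17 ± 0.13, and for phy-3, a hydroxylase gene, -0.18 ± 0.17 (limma adjusted p = 0.795 and 0.843). The value of nas-37 was -0.04 without HLB01 replicate 3, and that of phy-3 was -0.04 without Control replicate 3.

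**Figure D4:**
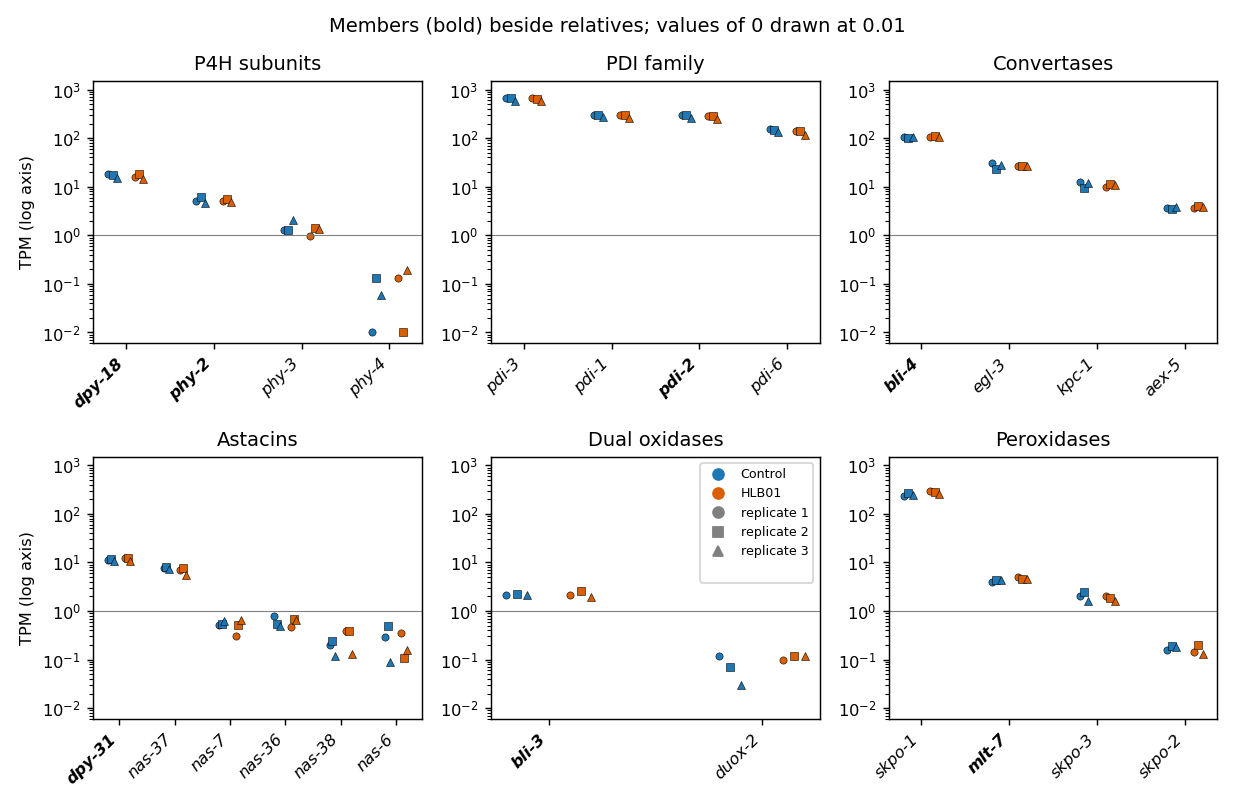
TPM (log axis) of members (bold) beside relatives of the same enzyme class in each library, with values of 0 drawn at 0.01 and a grey line at 1 TPM. Among the genes drawn for each class, bli-4, dpy-31, bli-3 and dpy-18 were the most abundant, whereas pdi-2 and mlt-7 were not.

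Set beside the relatives listed here, bli-4, bli-3, dpy-18 and dpy-31 were the most abundant transcripts of their enzyme classes. The convertase gene bli-4 held 69.6% to 73.5% of the summed TPM of bli-4, kpc-1, egl-3 and aex-5. The oxidase gene bli-3 held 94.3% to 98.6% of the sum with duox-2 (0.03 to 0.12 TPM), a closely similar gene on the same chromosome with a gap of 1402 bases between them. Reads of these similar genes may be divided with error. The peroxidase mlt-7, by contrast, took 1.54% to 1.75% of the sum over mlt-7 and the skpo genes, since skpo-1 had a mean 58.8 times higher. The isomerase pdi-2 took 20.8% to 21.7% of the sum over pdi-1, pdi-2, pdi-3 and pdi-6 in Control and 20.1% to 20.7% in HLB01. These shares were chosen after the values were seen and were not tested.

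The share of dpy-31 among 6 astacin genes was 54.8% ± 0.377 in Control and 58.4% ± 1.47 in HLB01 (SD, n = 3 each), with 54.4% to 55.2% against 57.03% to 59.97%. The groups did not overlap in this share or in that of pdi-2, and they overlapped in the other 4 shares, those of dpy-18, bli-4, bli-3 and mlt-7. Among the levels of all tested genes, 13.8% did not overlap. That figure is for single genes, and none was computed for shares, so it is not a background for them. Most of the other astacin transcript came from nas-37, at 7.69 ± 0.261 and 6.78 ± 1.21 TPM, while nas-36 stayed below 1 TPM in every library. The inhibitor gene bli-5 was at 0 to 0.36 TPM.

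The collagen substrates differed widely in level. The gene col-19, an adult cuticle collagen, was at 77.5 to 99.9 TPM, whereas the cuticle collagen genes rol-6, bli-1 and bli-2 were below 1 TPM in all libraries. HLB01 replicate 2, in which 4 of the 10 members were highest, also had dpy-13 at 2.42 TPM and dpy-5 at 2.88 TPM, against at most 0.29 TPM for either in the other libraries. It was the highest library for rol-6 (0.94 TPM) and sqt-1 (0.81 TPM) too, against at most 0.18 and 0.05 TPM in the others. The collagen genes dpy-13, dpy-5 and sqt-1 were named after their values were seen. The part of this library in the members' values was not tested. Of 13 collagen substrates 6 were tested and none passed the threshold in limma (0 at an unadjusted p below 0.05), with 1 positive and 5 negative log2 fold changes. Of those too low to test, dpy-7 was at 0.43 to 0.60 TPM in Control and 0.04 to 0.30 TPM in the HLB01 libraries, without overlap.

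Markers of tissues and of the moulting cycle did not pass the test either. Of 14 moulting genes 11 were tested, with a median of -0.10 on the log2 scale, 2 positive and 9 negative. The summed level of the 14 was 50.9 to 57.4 TPM in Control against 46.5 to 54.01 TPM in HLB01. Groups did not overlap for 2 of the 11, beside 13.8% of all tested genes. These were nhr-25 and grh-1, both lower in HLB01 (limma adjusted p = 0.744 and 0.693) and named after their values were seen. Of 10 epidermal markers, the tissue that makes the cuticle, 7 were tested, with a median of 0.03 and sums of 257.8 to 266.6 and 250.7 to 297.9 TPM. The epidermal regulator genes lin-26 and elt-3 were at 72.0 to 83.2 and 10.96 to 12.7 TPM. Another regulator gene, elt-1, was at 7.36 to 9.13 TPM in Control and 6.08 to 7.12 TPM in the HLB01 libraries, without overlap (limma unadjusted p = 0.0266, adjusted p = 0.508). The epidermal markers dpy-7, wrt-2 and che-14 were below 1 TPM in every library. These 6 epidermal genes were named after their values were seen. Muscle markers summed to 291.4 to 317.0 TPM in Control against 249.1 to 331.2 TPM in HLB01, intestinal markers to 6831 to 7669 and 6405 to 7024 TPM, germline markers to 5187 to 5534 and 5142 to 5531 TPM, and neuronal markers to 396.5 to 424.2 and 382.1 to 410.6 TPM. Abundant genes made up much of such sums, as did nhr-23 (mean 25.07 TPM) among the moulting genes and nlp-29 (131.7 TPM) in epidermis. So did asp-1 and spp-5 (2826 and 3236 TPM) in intestine, and snb-1 (331.2 TPM) in neurons. The neuronal sum thus mostly followed snb-1, whereas the tested neuronal markers had a median log2 fold change of 0.08 with 7 of 9 positive. The muscle markers had a median log2 fold change of -0.15 with 8 of 10 negative. Groups did not overlap for 4 of 10 intestinal markers, beside 13.8% of all tested genes. Of these 4, act-5 and asp-1 were lower in HLB01, and vha-6 and pept-1 were higher. These 4 and the abundant genes named above were also picked out after their values were seen. Before adjustment, p was below 0.05 for 1 of 7 tested epidermal, 3 of 10 intestinal and 1 of 10 muscle markers and for 0 of 11 moulting, 10 germline and 9 neuronal genes, beside 8.32% of all tested genes. The part of these tissues in the members' values was not tested. None of these lists had a marker at 0 in all libraries.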

How the data were processed

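The members and gene lists were chosen with earlier results of these data known. Per the labels' protocols, TRIzol total RNA was cleared of DNA and made into Illumina libraries. The authors deposited TPM values for 46778 genes, 1 column per library, each summing to 996559 to 997388. The tools fastp, HISAT and RSEM and the build WBcel235 are named in the submitters' processing notes. Tool versions, annotation release and strand setting: not given in the sources used here. TPM keeps no read depth, so the depth behind each value is unknown, and no counting interval is given. Coordinates and overlaps came from the Ensembl annotation of WBcel235.

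Samples were grouped by title. log2(TPM + 1) was fitted in limma 3.58.1 (R 4.3.3) with a mean-variance trend, two-sided, and the fit was tested on simulated data. All 10 members are named. Of the wider lists, the text names genes past the threshold, the 3 smallest p and 8 set genes, and of the collagen substrates 7 set genes. Other relatives were named after their values were seen. Replicate numbers did not pair the samples by the rule that every pair's correlation exceed 0.1. Alternatives covered scaling, model, pseudocount, filter, each library left out and a replicate block.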

Additional observations from a re-analysis of the deposited data

How the results depend on the processing

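Before adjustment, at most 1 member and 5 wider genes had a p below 0.05 in any of the 16 alternative limma fits. The 5, of 21 tested, came only from the replicate block, where 1193 of all 12590 tested genes were below 0.05. Replicate numbers did not pair the samples by the rule given above. The next highest was 4 of 21 without HLB01 replicate 3, beside 1091 of 12590. After adjustment, no member and no wider pathway gene passed the threshold in the original fit or in any alternative. The count over all genes moved from 50 to 27 without the trend, 80 with array weights, 22 with no filter, and 19 to 32 when 1 library was left out, and the cause was not tested. With the filter of 5 TPM only 6 members could be tested, and mlt-7, bli-3 and tsp-15 gave no value. The log2 fold change of phy-2 turned positive with quantile normalization (0.0042), with array weights (0.0128) and in some fits without 1 library (-0.104 to 0.0834 over these fits). Without 1 library, that of bli-3 ran from -0.0489 to 0.0834, that of pdi-1 from -0.0896 to 0.0304, positive only without HLB01 replicate 3, and that of pdi-3 from -0.054 to 0.0518. The sign of doxa-1 also varied, and with no filter its log2 fold change was 0.01 (limma adjusted p = 0.995). The 6 ratios moved by less than their spread in all alternatives, a rule that leaving out 1 library cannot break with 3 per group. The log2 difference of bli-3 to doxa-1 was 0.0224 with all libraries. It ran from -0.230 without HLB01 replicate 1 to 0.344 without HLB01 replicate 3. The signs for pdi-2 to the sum of dpy-18 and phy-2 and for bli-4 to dpy-31 also turned without some libraries. With the replicate block 48 genes and 0 members passed; pdi-2 had an unadjusted p of 0.0219 (limma adjusted p = 0.421). Same-numbered libraries correlated at -0.01, 0.04 and 0.13 in their deviations from the group means.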
